A study of Rattus norvegicus with 18 samples.

Results

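The 7 genes described here belong to the programme that builds new skeletal muscle fibres. They are 3 transcription factors (Myog, Myod1 and Myf6) and 4 genes of contractile proteins that embryonic, newborn or regenerating muscle uses (Myh3, Myh8, Myl4 and Actc1). Members were found by symbol, as the probe sets whose platform annotation gives a single gene symbol equal to a member. This gave 12 probe sets of 8740, and 7 genes of the 4736 that have a probe set of their own. Where a gene had several, the brightest by mean log2 signal stands for it and is called its leading probe set. Another 5 probe sets name Actc1 or Myh8 together with other genes and were not used.

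The arrays came from an experiment on fracture healing in female Sprague-Dawley rats that were 6 weeks (young), 26 weeks (adult) or 52 weeks (older) of age at surgery. A closed mid-shaft fracture of the left femur was held by a steel rod inside the bone, and the middle stretch of the bone was taken after 3 days or after 1, 2, 4 or 6 weeks. Sham-operated rats without a fracture gave the controls, called intact below. The methods describe 3 arrays for each age and time, and those used here, all labelled series 2, hold 1 of each. They number 18 in all, and each read RNA pooled from 2 rats. The 3 ages therefore stand in as the replicates of a time point. Time and age are additive terms of the main fit, which removes the mean difference between ages. Its p-values rest on the spread that is left, which holds differences between ages in their course over time. In comparisons between ages, the times stand in as the replicates instead.

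The dissected piece was described as callus, cortical bone and marrow. The osteoblast product Bglap was bright on every array (signal 4350 to 20100), and so were genes of mature muscle, a tissue that this description does not name: the summed signal of 20 mature contractile genes was 151300 to 167600 on the intact arrays. In such a bulk sample fewer cells of a type and less RNA per cell cannot be told apart. Signals were scaled so that every array has the same average, and 12.22% to 20.1% of probe sets per array lay under the floor of 20 that was set for the log scale.

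In the embryo and after muscle injury, precursor cells leave the cell cycle, fuse and switch on muscle proteins in a set order. Myod1, myogenin (Myog) and Myf6 (also called Mrf4) are helix-loop-helix proteins that pair with E proteins and bind E-boxes in muscle genes. Myod1 marks activated satellite cells, the stem cells of muscle. Myogenin drives terminal differentiation, and Myf6 is the member of the family that adult fibres keep. New fibres first make embryonic myosin (Myh3), then perinatal myosin (Myh8), before the adult myosins replace them. Myl4 is the light chain of embryonic and atrial myosin, and Actc1 is cardiac alpha actin, which fetal and regenerating skeletal muscle also makes.

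The stretch upstream of the gene is shown for the factor with the largest rise at 3 days (Myog), for the contractile gene with the largest fitted rise at the floor of 20 (Myl4) and for the embryonic myosin (Myh3). The sequences are RefSeq's, from build GRCr8, and cover the 250 bases before the annotated start. RefSeq windows were found for 6 of the 7 members, all but Myod1. Capitals mark E-boxes (CANNTG) and MEF2 sites, a motif of the MEF2 factors that act with the myogenic factors.
Myog, chr13:48297226-48297475, plus strand: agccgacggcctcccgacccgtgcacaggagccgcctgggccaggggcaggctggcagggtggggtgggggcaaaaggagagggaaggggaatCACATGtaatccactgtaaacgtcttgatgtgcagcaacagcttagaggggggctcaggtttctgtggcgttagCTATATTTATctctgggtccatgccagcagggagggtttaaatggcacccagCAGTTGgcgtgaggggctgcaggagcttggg
Myl4, chr10:89975900-89976149, plus strand: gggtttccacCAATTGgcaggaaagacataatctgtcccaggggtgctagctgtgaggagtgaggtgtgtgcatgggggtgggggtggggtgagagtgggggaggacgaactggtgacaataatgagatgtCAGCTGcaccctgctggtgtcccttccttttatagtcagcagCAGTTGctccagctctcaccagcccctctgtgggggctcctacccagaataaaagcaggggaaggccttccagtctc
Myh3, chr10:52268935-52269184, plus strand: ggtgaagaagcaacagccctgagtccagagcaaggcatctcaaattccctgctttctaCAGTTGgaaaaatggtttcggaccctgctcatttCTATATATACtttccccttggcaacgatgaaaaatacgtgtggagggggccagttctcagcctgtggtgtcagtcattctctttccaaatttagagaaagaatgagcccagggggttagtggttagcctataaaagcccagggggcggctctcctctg
Both strands were searched, over the window from 250 bases before to 50 bases after the start. The Myog window held 2 E-boxes, starting at -157 and -31, and a MEF2 site at -83. The Myl4 window held 3 E-boxes, at -240, -119 and -77, of which the middle one reads CAGCTG. That hexamer is an E-box too, and 15.1% of 33365 windows in the table held it. The Myh3 window held an E-box at -192 and a MEF2 site at -158. Myf6 had an E-box at -29 and a MEF2 site at -76, Actc1 had a CArG box (CCAAATAAGG, a site of serum response factor) starting at base 3 after the start, and the Myh8 window held no match. The hexamer CATTCC was in none of the 6 windows. Of all windows, 72.1% held an E-box, 8.26% a MEF2 site, 1.63% a CArG box and 14.2% CATTCC. An E-box is thus a common feature of any window of this length, and a match describes letters and not a bound site.

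The question of the time course was when after fracture each gene departed from the intact femur. All 7 genes were higher than intact at 1 week. At 3 days 4 of the 7 were already higher (Myog, Myf6, Myl4 and Actc1), at 2 weeks 5 (Myog, Myh3, Myh8, Myl4 and Actc1), at 4 weeks 3 (Myog, Myl4 and Actc1) and at 6 weeks 0. None was lower at any time. These are calls by limma, fitted with time and age as additive terms, at a Benjamini-Hochberg adjusted p below 0.05 over all 8740 probe sets. By the same rule 18.9% of all probe sets were called higher at 3 days, 18% at 1 week, 16.1% at 2 weeks, 11.5% at 4 weeks and 8.34% at 6 weeks. The median log2 change of the 7 genes was 0.41, 2.31, 1.67, 1.13 and 0.65 at the 5 times in turn, where the median of all probe sets lay between -0.08 and -0.01. At 6 weeks 3 of the 7 had an unadjusted p under 0.05, and the t-test of the methods also called 0.

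**Figure D1:**
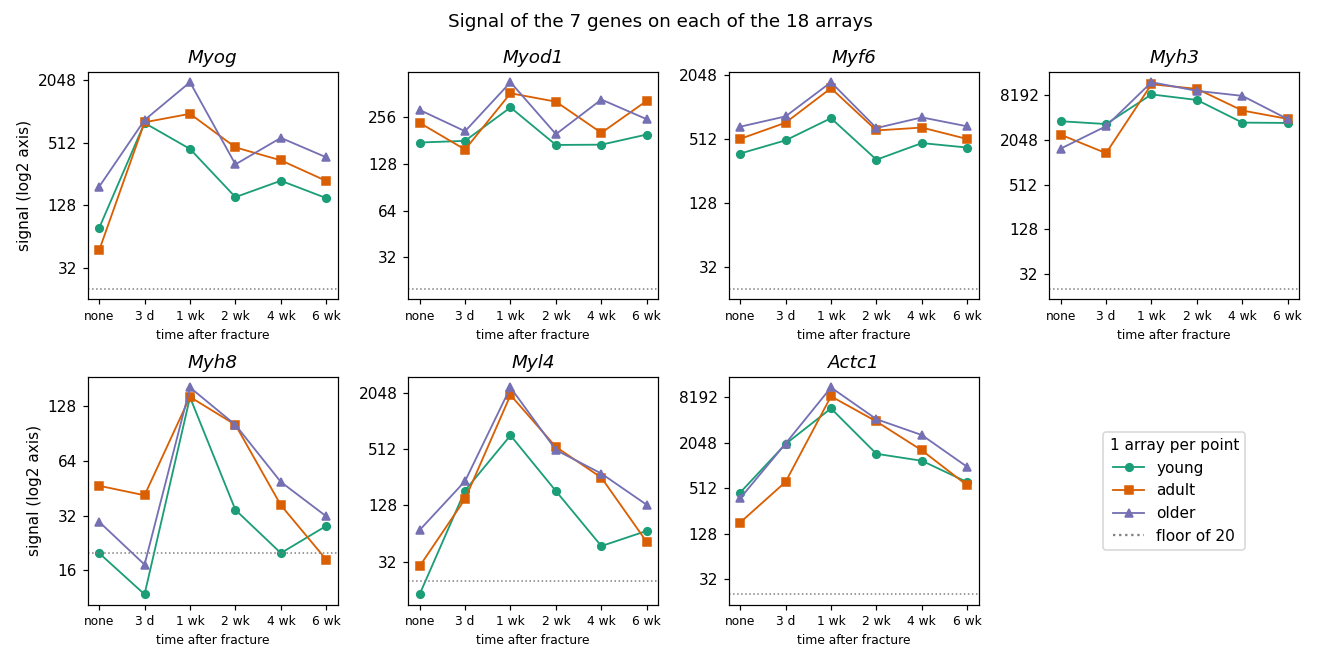
Signal of the leading probe set of each gene (vertical axis, log2 scale) against time after fracture (horizontal axis; none is the intact femur), with 1 point per array and a line per age; the dotted line is the floor of 20. Of the 7 genes, 6 peak at 1 week at all 3 ages, and Myog does so in adult and older rats but peaks at 3 days in the young.

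Myogenin had the largest change of the 7 at 3 days. Its signal on the young, adult and older intact arrays was 77.2, 47.1 and 193, and 3 days after fracture it was 794, 806 and 847. The 3-day arrays were nearly level with each other and lay far above the intact ones, without overlap. The change was 3.20 on the log2 scale (SE 0.44, 9.17-fold, limma adjusted p = 0.000245). At 1 week the ages spread apart, with signals of 446, 972 and 1958 in the same order, but the fitted change against intact stayed near that of 3 days (10.7-fold, adjusted p = 0.000267). It was still 3.18-fold at 2 weeks (adjusted p = 0.0139) and 3.96-fold at 4 weeks (adjusted p = 0.0103). At 6 weeks the signals were 150, 220 and 371, each above the intact array of the same age, and the 2.59-fold difference did not pass (adjusted p = 0.0556).

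Myf6, the factor of mature fibres, was well above the floor on every array and made a short rise. Its signal was 376, 516 and 672 on the intact arrays of young, adult and older rats. It was 809, 1548 and 1762 at 1 week, above all intact arrays and 2.57-fold higher (log2 1.36, SE 0.11, limma adjusted p = 3.48e-05). By 2 weeks the signals were 329, 620 and 653, which overlap the intact ones, and the fitted change was 0.01 on the log2 scale. The 3-day values of 500, 733 and 841 also overlap those of intact femora, yet each lay above its own age, and the 1.33-fold change passed in the fit that removes the age differences (adjusted p = 0.0131).

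Myod1, the factor of activated precursors, had the smallest change of the 7 at 1 week. Its intact signals were 176, 236 and 286, and at 3 days, when Myog was already up, they were 181, 159 and 208. At 1 week they reached 297, 366 and 432, which just clears the highest intact array. The 1.58-fold change passed narrowly (log2 0.66, SE 0.23, limma adjusted p = 0.0484), and it passed in 4 of 14 alternative analyses, not among them a floor of 100 or the left-out ages. At 2, 4 and 6 weeks the values overlapped those of intact femora.

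The embryonic myosin Myh3 did not pass at 3 days, when the ages moved in different directions, and rose after that. Its signals on intact arrays were 3651, 2407 and 1559 for young, adult and older rats, and 3347, 1356 and 3128 at 3 days. Against the intact array of the same age this was 0.917-fold, 0.563-fold and 2.01-fold. The fitted log2 change at 3 days was 0.02 (SE 0.41). At 1 week they were 8386, 11499 and 12249, and at 2 weeks 7065, 9959 and 9376, with no overlap with intact at either time. The change was 4.42-fold at 1 week (log2 2.14, SE 0.41, limma adjusted p = 0.00238) and 3.64-fold at 2 weeks (adjusted p = 0.00555). At 4 weeks the young array (3497) was near its intact level while the older array (8018) was not, and the 2.18-fold change did not pass (adjusted p = 0.0731).

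The chip carries 5 probe sets for Myh3, and they differ in how far they moved. At 1 week the leading probe set rose 4.42-fold, and 3 dimmer ones rose 7.30-fold, 17.4-fold and 18.6-fold (limma adjusted p from 0.000921 to 0.00122). The dimmest did not pass (1.58-fold, adjusted p = 0.0915; signals 57.1 to 123). None of the 5 passed at 3 days. At 4 weeks 2 of them were higher, and at 6 weeks 1 still was (4.74-fold, adjusted p = 0.0471), where the leading probe set passed at neither time. The genes for the muscle myosin heavy chains are close copies that lie side by side in the rat genome, with Myh2, Myh1 and Myh4 between Myh3 and Myh8, so a probe set may read a relative as well. Which transcripts each of them reads was not tested.

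**Figure D2:**
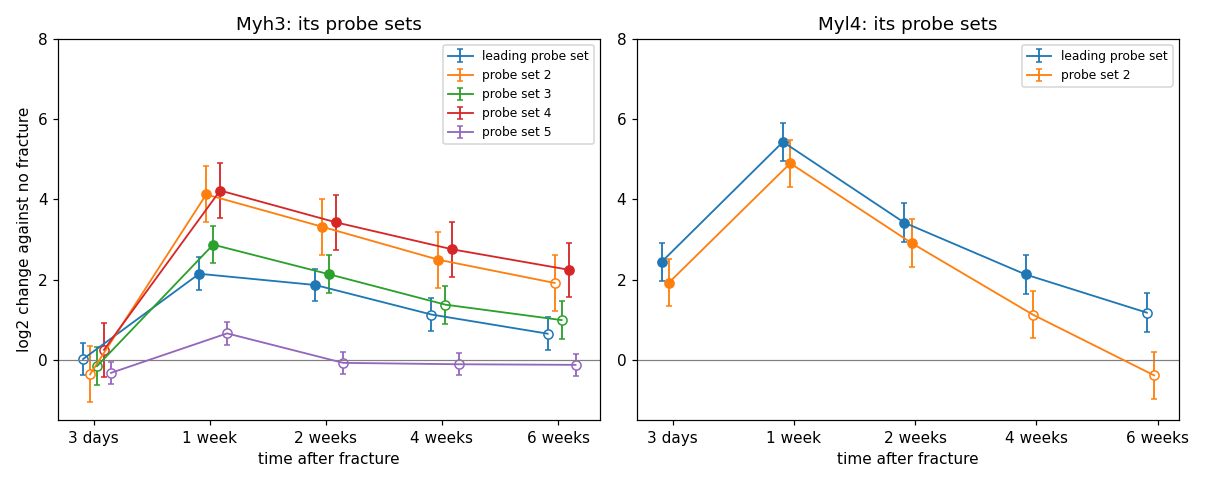
Log2 change against no fracture (vertical axis) at 5 times (horizontal axis) for the 5 probe sets of Myh3 (left) and the 2 of Myl4 (right); bars are standard errors of the limma fit and filled points passed at an adjusted p below 0.05. At 1 week 4 of 5 Myh3 probe sets and both of Myl4 passed.

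Myh8, the perinatal myosin, was close to the floor except at 1 and 2 weeks. Intact signals were 19.9, 46.7 and 29.6 and the 3-day signals 11.8, 41.4 and 17.2, with 1 and 2 arrays under the floor. At 1 week the 3 ages were almost the same, at 143, 144 and 162, and all were above the intact arrays. This was 4.95-fold on the floored scale (log2 2.31, SE 0.39, limma adjusted p = 0.00116). At 2 weeks adult and older arrays both read 101 and the young array 34.4, and the 2.33-fold change passed (adjusted p = 0.0324) but was lost when any 1 age was left out. At a floor of 100 the log2 change was 0.58 at 1 week, which still passed, and 0.01 at 2 weeks, which did not. By 4 weeks the values were those of intact femora again, 19.9 to 49.0. The probe set annotated to Myh2, Myh1 and Myh8 together ran otherwise. Its mean was 8857 on intact arrays, 1371 at 3 days and 5610 at 1 week, and the part of Myh8 in it was not tested.

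Myl4 had the largest fitted rise at the floor of 20. Its signal was 14.3, 28.6 and 69.5 on the young, adult and older intact arrays, the first of them under the floor. At 3 days it was 184, 149 and 232, and at 1 week 714, 1926 and 2322. The times were ordered the same way at each age, and neither overlapped the intact arrays. The change was 5.43-fold at 3 days (log2 2.44, SE 0.48, limma adjusted p = 0.00224) and 43.1-fold at 1 week (log2 5.43, SE 0.48, adjusted p = 4.79e-05). It was 10.7-fold at 2 weeks (adjusted p = 0.000534) and 4.37-fold at 4 weeks (adjusted p = 0.0116), where the young array (46.9) lay among the intact ones. These sizes depend on the floor: at a floor of 100 the Myl4 change was 3.88 on the log2 scale at 1 week, below the 4.72 of Actc1, and the changes at 3 days (0.89) and 4 weeks (0.94) did not pass. The other Myl4 probe set rose 29.8-fold at 1 week (adjusted p = 0.000203), and at 4 weeks it did not pass (2.18-fold, adjusted p = 0.206).

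Cardiac alpha actin, Actc1, was likewise up at 3 days and highest at 1 week. It read 446, 179 and 374 on the intact arrays, 1965, 618 and 1995 at 3 days, and 5833, 8442 and 11056 at 1 week. Every fractured array up to 6 weeks lay above all 3 intact arrays. The change was 4.33-fold at 3 days (limma adjusted p = 0.00456), 26.3-fold at 1 week (log2 4.72, SE 0.47, adjusted p = 8.08e-05), 9.30-fold at 2 weeks (adjusted p = 0.000659) and 5.49-fold at 4 weeks (adjusted p = 0.00583). At 6 weeks the signals were 614, 556 and 977, and the 2.23-fold difference did not pass (adjusted p = 0.124). Actc1 is nearly identical in its coding part to the other muscle actins, and of the 4 probe sets annotated to both Acta2 and Actc1, 3 were also highest at 1 week at every age. The remaining 1 read 0.5 to 26.4, near or under the floor.

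**Figure D3:**
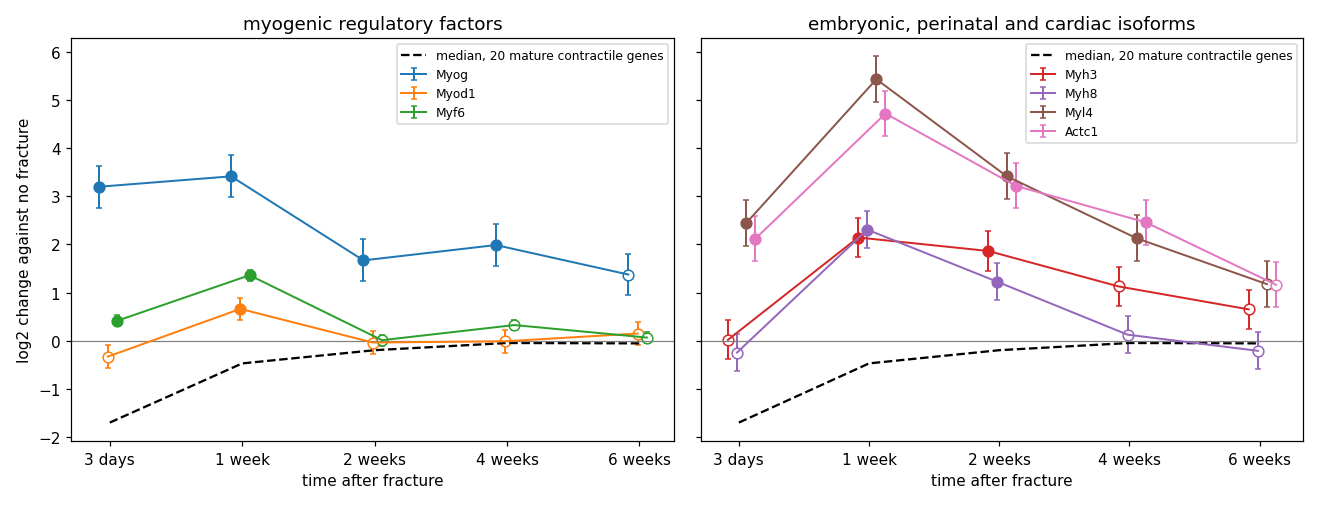
Log2 change against no fracture (vertical axis) at each time (horizontal axis) for the 3 factors (left) and the 4 contractile genes (right), with standard errors of the limma fit; filled points passed at an adjusted p below 0.05, and the dashed line is the median of 20 mature contractile genes. Myog is near its highest value at 3 days, the other 6 are highest at 1 week, and the mature genes are lowest at 3 days.

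The next question was which neighbouring times differed. From 3 days to 1 week 6 of the 7 rose, where limma called 2.12% of all probe sets higher. The step was 7.95-fold for Myl4 (adjusted p = 0.00677), 6.08-fold for Actc1 (adjusted p = 0.0118), 5.87-fold for Myh8, 4.37-fold for Myh3, 1.99-fold for Myod1 and 1.93-fold for Myf6. Myog was the exception, with 0.22 on the log2 scale (SE 0.44, adjusted p = 1). At 3 days it had already reached 93.7% of its 1-week log2 change, against 44.9% for Myl4, 44.8% for Actc1, 30.4% for Myf6 and 0.798% for Myh3. These percentages are ratios of fitted changes and carry the errors given above. The step from 3 days to 1 week was shared by other muscle genes. Of 20 mature contractile genes limma called 11 higher and 0 lower (median log2 change 1.42). Of 18 genes that myogenic factors are known to switch on, 13 were higher and 0 lower (median 1.555). Of 12 other cardiac and fetal isoforms, 6 were higher and 0 lower (median 0.80). For this step 306 of all probe sets were called in either direction, but 1 without the adult and 36 without the older arrays. Most of these list calls therefore did not hold without the adult arrays.

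After 1 week all 7 genes declined in the fitted values, but the fall from 1 to 2 weeks passed only for Myf6. It fell by 1.35 on the log2 scale (SE 0.11, limma adjusted p = 0.000506), in a comparison where 0.0915% of all probe sets, 8 in number, were called lower. Another 5 members had an unadjusted p under 0.05 for this step. Neither from 2 to 4 weeks nor from 4 to 6 weeks was any of the 7 called by limma, where 1.6% and 0.0915% of all probe sets were, and 3 and 2 of them had an unadjusted p under 0.05.

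How far each call rests on single arrays was examined by leaving out each age. At 1 week Myog, Myf6, Myh8, Myl4 and Actc1 were called in all 3 reduced fits. Myod1 was lost in each of them, and Myh3 without the adult or without the older arrays. At 3 days Myog and Myl4 held throughout, Actc1 was lost without the older arrays, and Myf6 without the adult or the older ones. At 2 weeks the count fell to 4 without young, 2 without adult and 1 without older rats, and at 4 weeks to 0 without adult or older rats. The step from 3 days to 1 week gave 4 calls without young and 0 without either of the other ages. Calls over all probe sets, in either direction, changed in these fits as well. Without young, adult and older arrays in turn, 3437 calls at 3 days became 2776, 1742 and 1844. At 1 week 3126 became 2684, 1051 and 1189, and at 2 weeks 2868 became 2458, 889 and 884. At 4 weeks 1855 became 2011, 37 and 111, and for the step from 3 days to 1 week 306 became 223, 1 and 36.

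Other features of the arrays moved with fracture. A ratio of 3' to 5' actin control signals, a reading of RNA quality, was 2.1 to 2.61 on intact arrays, 1.48 to 1.88 at 3 days and 1.66 to 1.76 at 1 week. With this ratio as a covariate 2 of the 7 were called higher at 3 days, 5 at 1 week, 2 at 2 weeks, 0 at 4 weeks and 1 at 6 weeks. Calls over all probe sets, in either direction, became fewer with this covariate as well. From 3 days to 6 weeks they numbered 1181, 1022, 679, 180 and 1205, against 3437, 3126, 2868, 1855 and 1350 in the main fit. Erythroid genes fell in 5 of 5 at 3 days and at 1 week (median log2 change -4.61 and -4.64), their summed signal going from 41790 to 74610 on intact arrays to 2463 to 14920 at 1 week. None of the 5 was under the floor on all arrays of a time. Because each array is scaled to a fixed average, a fall of abundant transcripts raises the share of others, and its part in the rises was not tested. Smooth muscle and myofibroblast genes rose in 3 of 7 at 3 days and 6 of 7 at 1 week (median 0.61 and 1.22), and their summed signal went from 4375 to 7287 on intact arrays to 9712 to 13620 at 1 week, with none of the 7 under the floor on all arrays of a time. Of all probe sets 18.9% rose and 20.4% fell at 3 days, and 18% rose and 17.8% fell at 1 week. Acta2, Tagln and Cald1 rose at both times, by 1.35, 1.85 and 1.92 on the log2 scale at 3 days and by 1.57, 2.26 and 1.85 at 1 week. Myl9 and Myh11 did not rise at 3 days (-0.64 and -0.59, neither past the test), and at 1 week Myl9 was at -0.03 while Myh11 rose by 1.02. Without the adult arrays neither Tagln nor Cald1 passed at either time, and without the older ones Cald1 did not at 1 week. The list rose in 1 of 7 at both times without the adult arrays, in 3 and 2 without the older arrays, and in 0 and 1 with the actin ratio. The part of these cells in the Actc1 signal was not tested.

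Against intact femora the genes of mature fibres mostly ran the other way, above all at 3 days. From 3 days to 1 week they rose as well, as given above. Of 20 measured mature contractile genes, of 25 listed, 15 fell and 1 rose at 3 days (median log2 change -1.70), and 5 fell and 2 rose at 1 week (median -0.47). Of all probe sets 20.4% fell at 3 days and 17.8% at 1 week. Myh2, a fast adult myosin, went from 7596, 5938 and 2382 on the intact arrays to 361, 149 and 178 at 3 days, so that it fell by 4.49 on the log2 scale. The slow-fibre light chain Myl2 changed by -3.99 at 3 days and -1.94 at 1 week, its partner Myl3 by -2.83 and -2.10, and the slow myosin Myh7 by -2.50 and -1.09 (at 1 week adjusted p = 0.0592). The genes of this list that rose were Tpm2, a tropomyosin, at both times (0.83 and 1.26 on the log2 scale) and Mybph, a thick-filament protein, at 1 week (1.98 on the log2 scale). At 1 week Myh2 did not pass without the young (-1.21) or adult arrays (-1.07), Myl3 without the adult (-2.49), Myl2 without the older (-1.495) and Mybph without the young arrays (1.64). Without the adult or the older arrays the count of rises at 3 days was 0. With the actin ratio as covariate the falls numbered 8 at 3 days and 1 at 1 week, and without the adult arrays the 1-week count was 1 as well, without the older arrays 2.

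A second fit therefore took each array relative to these genes, by subtracting the mean log2 signal of the 20 from every value. On that scale 7 of the 7 members were higher at 3 days, 7 at 1 week, 5 at 2 weeks, 3 at 4 weeks and 1 at 6 weeks. The shift raises nearly everything while mature transcripts are low: 81.7% of all probe sets were called higher at 3 days, 35.9% at 1 week, 18% at 2 weeks, 8.7% at 4 weeks and 6.09% at 6 weeks. The median of all probe sets on this scale was 1.49 at 3 days and 0.38 at 1 week, and that of the 7 genes 1.98 and 2.72. Without the older arrays the 4-week count was 0 and without the adult arrays 1, and at 6 weeks both gave 0.

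Genes that myogenic factors are known to switch on were split. Of 18 measured (21 listed), 2 rose and 11 fell at 3 days (median log2 change -1.62), and 4 rose and 7 fell at 1 week (median -0.36). Of all probe sets 18.9% rose and 20.4% fell at 3 days, and 18% rose and 17.8% fell at 1 week. The 4 that rose at 1 week all encode subunits of the muscle acetylcholine receptor, which receives the motor nerve's signal. Chrna1 read 110, 108 and 215 on the intact arrays, 929, 641 and 996 at 3 days and 1770, 2269 and 2832 at 1 week, with no overlap at either time. Its log2 change was 2.62 at 3 days (limma adjusted p = 3.16e-05) and 4.04 at 1 week (adjusted p = 1.03e-05). Chrnd rose by 1.12 and 2.19 on the log2 scale at the same times, and Chrne (1.44) and Chrnb1 (0.65) at 1 week. The other measured subunit, Chrng, did not pass at 3 days (-0.22) or at 1 week (0.18). The genes that fell at 3 days included the calcium buffers parvalbumin (Pvalb, -4.41) and calsequestrin (Casq1, -3.78), the Z-disc gene Ldb3 (-3.65) and muscle enolase (Eno3, -3.46). At 1 week Ldb3 (-1.55) and Eno3 (-0.93) were still lower, while Pvalb (-0.80) and Casq1 (-0.47) did not pass. The 7 falls at 1 week became 0 when the adult or the older arrays were left out or the actin ratio was added.

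**Figure D4:**
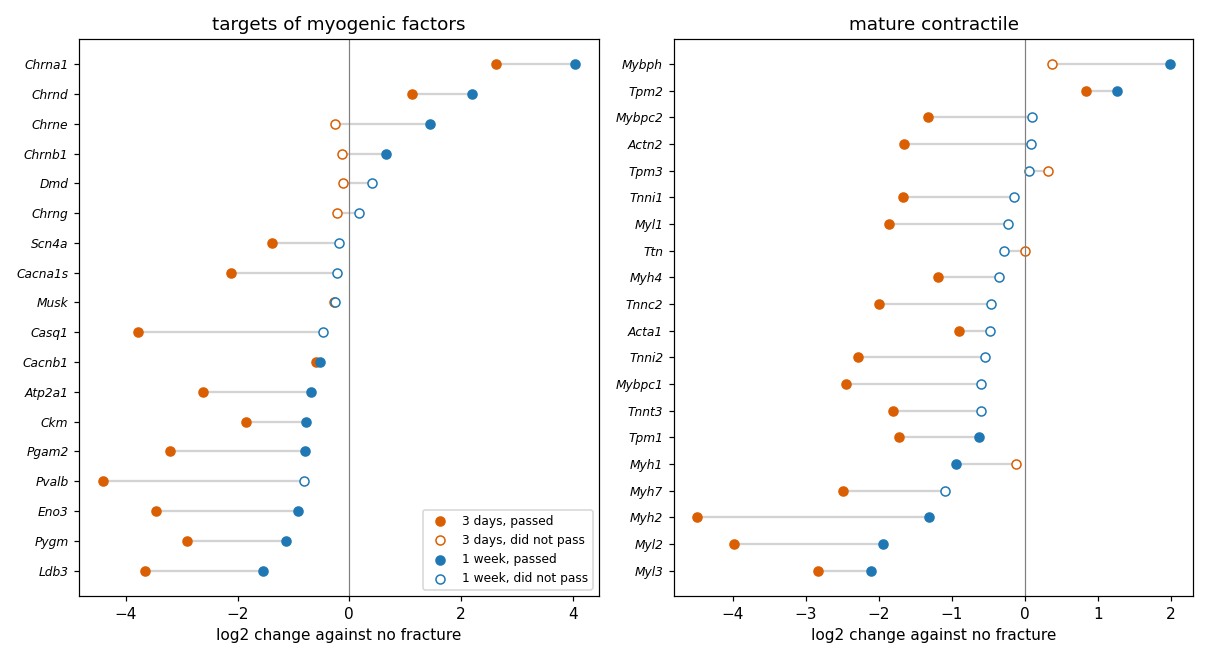
Log2 change against no fracture (horizontal axis) at 3 days (orange) and 1 week (blue) for 18 known targets of myogenic factors (left) and 20 mature contractile genes (right), ordered by the 1-week value; filled points passed at an adjusted p below 0.05. Receptor subunits Chrna1, Chrnd, Chrne and Chrnb1 lie to the right at 1 week, and most other genes lie furthest to the left at 3 days.

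Other cardiac and fetal isoforms behaved unlike each other. Of 12 measured (14 listed), 2 rose and 5 fell at 3 days (median log2 change -0.64), and 4 rose and 3 fell at 1 week (median -0.24). The shares over all probe sets were 18.9% and 20.4% at 3 days and 18% and 17.8% at 1 week. Tnnt2, the cardiac troponin T that embryonic skeletal muscle also makes, went from 92.3, 82.5 and 67.3 on intact arrays to 812, 1677 and 2064 at 1 week (log2 4.14, limma adjusted p = 6.45e-05). Ankrd1, a stretch-responsive nuclear protein, rose by 1.89 at 3 days and 3.41 at 1 week, and Csrp3, a Z-disc protein, by 1.81 at 1 week. On the other side Myh6, the atrial myosin, changed by -3.49 at 3 days and -1.46 at 1 week, and the slow calcium pump Atp2a2 by -1.45 at 3 days, a value that was -0.13 when all its probe sets were averaged. At 1 week Myh6 did not pass without the older (-0.73) or the adult arrays (-1.80), nor when its probe sets were averaged. The slow myosin Myh7 changed by -2.50 and -1.09 at the same times. Whether the Myh6 probe set also reads such a relative was not tested. The 3 falls at 1 week numbered 0 without the adult and 1 without the older arrays.

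Upstream of the factors, 26 genes of 36 listed that regulate them were measured, of which 11 rose and 4 fell at 3 days and 12 rose and 4 fell at 1 week (medians 0.29 and 0.43 on the log2 scale). Among all probe sets 18.9% rose and 20.4% fell at 3 days, and 18% and 17.8% at 1 week. The growth factors Igf1 and Igf2, which promote myoblast differentiation, rose by 2.51 and 2.62 at 1 week, and the binding protein Igfbp5 by 2.64. At 3 days Igf2 (0.05) did not pass, and Igf1 rose by 1.60 (adjusted p = 0.0303). The cell-cycle inhibitor Cdkn1a rose by 2.06 and 2.10 at the 2 times. Without the adult (2.34) or the older arrays (2.22) Igf1 did not pass at 1 week, and Igf2 did not when its probe sets were averaged (0.13). Cyclin D1 (Ccnd1) rose by 2.27 at 3 days. The homeobox repressor Msx1 read 248, 122 and 16.1 on the intact arrays and 240, 278 and 524 at 3 days, so the young rats did not rise. Its fitted change of 1.95 was 0.57 without the older arrays and did not pass there, nor without the adult ones (2.33). The E protein Tcf12, near the floor on intact arrays, had a change of 1.86, which did not pass without the young arrays (1.82) or at a floor of 100 (0.27). The list also holds inhibitors of the factors, and many of its genes are used by other cells of the callus. With the actin ratio as covariate 3 and 4 of them rose at the 2 times, without the adult arrays 8 and 5, and without the older arrays 6 and 6.

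Among 20 measured genes of satellite cells and fusion (23 listed), 10 rose and 2 fell at 3 days and 12 rose and 1 fell at 1 week (medians 0.53 and 0.70). Over all probe sets the shares were 18.9% and 20.4% at 3 days and 18% and 17.8% at 1 week. The cytokine Il6 was under the floor on all 3 intact arrays and read 416, 575 and 1252 at 3 days, and the adhesion molecule Vcam1 fell by 2.13 on the log2 scale. Vimentin (Vim), a filament protein, rose by 1.88 at 1 week. The cadherin Cdh2 was under the floor on 2 intact arrays (11.7 and 16.6, against 183 in the young), and its changes of 3.68 at 3 days and 2.79 at 1 week were 2.13 and 1.24 at a floor of 100. The adhesion molecule Ncam1 read 219, 234 and 28.9 on the intact arrays and 504, 570 and 556 at 1 week. Its fitted change of 2.25 was 1.25 without the older arrays, where it passed, and it did not pass without the young (2.78) or the adult ones (2.73). The growth factor receptor Fgfr1 changed by 2.34 and 2.10 at the 2 times. Neither Cdh2 nor Fgfr1 passed at either time without the adult or without the older arrays. None of these genes belongs to muscle precursors alone. Without the adult arrays 2 rose at 3 days and 1 at 1 week, without the older arrays 4 at each time, and with the actin ratio 3 and 4.

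The study's other axis was age. Older rats had higher fitted signals than young rats for all 7 genes over the 6 times, but the difference passed for Myf6 alone. Myf6 rose in order from young to adult to older at 6 of 6 times, an order that 0.0458% of all probe sets kept. It was 1.52-fold higher in adult than in young rats (log2 0.60, SE 0.08, limma adjusted p = 0.0322) and 1.82-fold higher in older than in young rats (log2 0.86, SE 0.08, adjusted p = 0.0029). In these comparisons 0.0343% and 0.206% of all probe sets were called higher, which is 3 and 18 in number. The Myf6 calls did not hold with fewer arrays. Without the older arrays the adult difference had an adjusted p of 0.336, and without the adult arrays the older difference had an adjusted p of 0.15.

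The other members were less regular. Older exceeded young rats at 6 of 6 times for Myog, Myod1 and Myl4, at 5 for Myh8 and Actc1 and at 4 for Myh3, and 3.4% of all probe sets did so at all 6. The difference was 2.32-fold for Myog (limma adjusted p = 0.118), 2.76-fold for Myl4 (adjusted p = 0.0976) and 1.12-fold for Myh3 (adjusted p = 0.897). Between adult and young rats Myh3 and Actc1 were level (log2 -0.04 and -0.12). At 1 week the 7 genes were all ordered young, adult, older, and again at 4 weeks, where 18.3% and 12.7% of all probe sets had this order. On the intact arrays 3 of the 7 had it, against 9.67% of all probe sets. At 3 days and at 2 and 6 weeks 2 of the 7 did, against 14.3%, 16.4% and 17.5%. Each of these orders compares single arrays.

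Whether the age difference belonged to part of the time course was asked with a fit of age within phases. By limma, older rats differed from young ones in 0 of the 7 genes at 1 and 2 weeks, in 0 at 4 and 6 weeks, and these differences from each other in 0, where 0.0458%, 1.74% and 0.0915% of all probe sets were called. None of the 7 had an unadjusted p under 0.05 in any of the 3. In this fit the 2 times of a phase stood in as replicates, without a term for the change between them. Such a change, like the fall from 1 to 2 weeks, therefore counted as spread. The fit has 6 residual degrees of freedom, and its standard errors for these genes ran from 0.33 to 1.18 on the log2 scale within a phase. For Myf6 the standard error was 0.65 within a phase, against 0.08 in the additive fit over all 6 times. The Myog difference was 1.59 (SE 0.92) at 1 and 2 weeks and 1.34 (SE 0.92) at 4 and 6 weeks, and the Myl4 difference 1.58 (SE 1.18) and 1.75 (SE 1.18), so that differences of this size were not detectable.

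The members also differed in which genes ran alongside them over the 18 arrays. The measure was Pearson's r of log2 signals among 4313 other genes above the floor on 6 or more arrays, where arrays share time points and ages, so the values only describe. Myl4 and Actc1 were close to each other (r = 0.937), and Tnnt2 and Klk1, a tissue kallikrein, were near both. Next to Myog stood Id1 (0.924), Klf10, Csrp2, Rhob and Chrna1 (0.896). Myf6 ran with Itga7 (0.915), the laminin receptor of muscle fibres, Ackr3, Chrnd, Des and Klf10, and Myod1 with Des (0.758), Ndrg2, Pdlim3, Il12b and Chrnb1. Myh3 was nearest to Igf2 (0.951), followed by Csrp3, Klk1c3, Megf6 and Cdh22, while Myh8 was nearest to Klk1c3 (0.92), then Klk1, Camk2b, Ppp3ca and Clu. The remaining neighbours were Chrna1 (0.921) and Clu for Myl4, and Igfbp5 (0.934) and Megf6 for Actc1. Between members r was lowest for Myog with Myh3 (0.375), whose courses differ at 3 days.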

How the data were processed

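RNA of 18 pooled samples was read on Affymetrix Rat U34A arrays. The deposited values are signal intensity, which the authors computed with Microarray Suite 5.0 and scaled to an average of 500 per array, and the trimmed mean of each array was checked at 500.71 to 500.84. Of 8799 probe sets, 59 controls were left out. Of the 8740 tested, 7006 carry 1 gene symbol in the platform annotation, 308 several and 1426 none. Values under 20 were set to 20 before log2 was taken, so folds of genes near the floor are understated. The linear model of limma 3.58.1, under R 4.3.3, had terms for time and age (10 residual degrees of freedom), a moderation that follows signal, and Benjamini-Hochberg adjustment over 8740. The code was tested on simulated data. Array signals have no sequencing depth, and their number limits the precision. The members, gene lists and tests were chosen with earlier results of these data known. Named genes are the 7 members, up to 4 per list with the largest change at 3 days and at 1 week, and the 5 nearest by correlation for each member. Genes outside this rule (Tpm2, Chrnb1, Chrng, Myh11 and the 1-week or 3-day value of a gene named at the other time) were chosen after their values were seen. Alternatives covered normalization, floor, filter, moderation, covariates, probe set choice, left-out ages and the t-test of the methods. The detection calls of the arrays were left aside.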

Additional observations from a re-analysis of the deposited data

How the results depend on the processing

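The 7 rises at 1 week kept their direction under every alternative that gave a value (Myh8 had none under a mean signal of at least 200), and Myl4 was called at 1 week under all 14 of them. With the actin 3'/5' ratio as covariate the members called higher numbered 2 at 3 days, 2 at 2 weeks, 0 at 4 weeks and 1 at 6 weeks, and relative to the mature contractile genes 3 at 2 weeks and 1 at 4 weeks. In fits restricted to the arrays compared, paired by age, they numbered 1, 2, 0 and 0 from 3 days to 4 weeks. A t-test, which the methods name without a threshold, gave 1, 4, 0 and 0 after Benjamini-Hochberg adjustment. It gave 0, 3, 0 and 0 at an unadjusted 0.005, a threshold the methods state for the change p-value of the array software and not for t-tests. Without an age term 3 were called at 2 weeks, 0 fell from 1 to 2 weeks, and 0 were higher relative to mature genes at 6 weeks. With a mean signal of at least 200, 2 were higher at 6 weeks, 3 relative to mature genes at 6 weeks, and 3 in older than in young rats. With log2(signal + 50), 2 fell from 1 to 2 weeks, 2 were higher in older rats and 0 relative to mature genes at 6 weeks. A floor of 100 gave 2 falls from 1 to 2 weeks and 0 members higher in adult rats. It also ended the calls of Myl4 at 3 days (log2 0.89) and 4 weeks (0.94), Myh8 at 2 weeks (0.01) and Myod1 at 1 week (0.66) and from 3 days to 1 week (0.99), and brought Myh8 at 1 week to 0.58. The cause of these shifts was not tested, beyond the fewer arrays in the restricted fits.

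With each age left out in turn the members called ranged from 2 to 4 at 3 days, 5 to 6 at 1 week, 1 to 4 at 2 weeks, 0 to 4 at 4 weeks, 0 to 1 at 6 weeks, 0 to 4 for the rise from 3 days to 1 week, 0 to 1 for the fall from 1 to 2 weeks, and 0 for adult and for older against young rats. Relative to mature genes they ranged from 4 to 5, 0 to 4 and 0 to 2 at 2, 4 and 6 weeks. Age contrasts could not be fitted without an age they name.

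Directions that turned were all of uncalled changes, given here as log2 values. Myh3 at 3 days was -0.015 after quantile normalization, -0.60 with the actin ratio, -0.12 averaged over its probe sets and -0.48 to 0.44 with an age left out, and its adult difference was 0.10 averaged over probe sets. Myh8 at 3 days was 0.017 with the actin ratio. The other turns after quantile normalization and median centring were Myod1 from 2 to 4 weeks, -0.052 and -0.033. With an age left out, Myf6 at 2 weeks ranged from -0.12 to 0.11, Myh8 from -0.18 to 0.36 at 4 weeks and -0.56 to 0.29 at 6 weeks, and Myog from -0.28 to 0.74 between 3 days and 1 week. Myod1 ranged from -0.29 to 0.20 at 2 weeks, -0.13 to 0.088 at 4 weeks, -0.014 to 0.32 at 6 weeks, -0.33 to 0.37 from 2 to 4 weeks and -0.10 to 0.45 from 4 to 6 weeks.

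Over all probe sets, 3437, 3126, 2868, 1855 and 1350 were called at the 5 times. A mean signal of at least 200 left 2056 at 1 week, with fewer probe sets tested. The actin ratio left 1181, 1022, 679 and 180 at 3 days to 4 weeks. The fits paired by age and restricted to the arrays compared made 902, 356, 0, 0 and 0, the adjusted t-test 1422, 1400, 745, 46 and 12, and the t-test at 0.005 1120, 1107, 814, 344 and 248. Without adult arrays 1742, 1051, 889, 37 and 57 were called, and without older arrays 1844, 1189, 884, 111 and 46. From 3 days to 1 week 306 were called, 1 without adult and 36 without older arrays. From 2 to 4 weeks 140 were, 75 without an age term and 2 to 88 with an age left out. Of the 39 for older against young rats, the actin ratio left 4, a floor of 100 left 8 and the fit without adult rats 0, while log2(signal + 50) gave 76, median centring 64 and the filter at 200 135. Relative to mature genes 3775, 2381, 1435 and 964 were called from 1 to 6 weeks, 1883, 1323, 90 and 30 without adult and 1651, 1186, 126 and 77 without older arrays. All labels carry the same series number, so they gave no pairing beyond age, and age was a term of the reported fits.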
